A study of Sus scrofa with 6 samples.

Results

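The data cover the 2 arms of miR-22, miR-22-3p and miR-22-5p, in the left atrium (LA) of paced and sham pigs. They were measured by 2 of the 322 pig miRNA probes of a 1-colour microarray, found by the probe names ssc-miR-22-3p and ssc-miR-22-5p. Both arms were chosen by their measured values, being well above background on all 6 arrays and lower on every paced array than on every sham array. Their paced and sham values are therefore given as a description, with no test. The 3 paced pigs were anaesthetized, received the beta blocker esmolol and had bursts of rapid pacing delivered through a catheter in the right atrium to bring on brief atrial fibrillation (AF), and the LA was taken about a day later. The 3 sham pigs were operated on without burst pacing, and whether they received esmolol is not given in the sources used here. The labels call the animals neonatal piglets, whereas the methods describe Large White pigs some months old, and no genetic change or strain difference between the groups is given. Each animal had its own array, so n = 3 per group, and short bursts model brief episodes and not chronic AF.

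miR-22 is made from a single short hairpin, which lies in an exon of a long non-coding host transcript. Cutting of the hairpin releases an arm from each side, and the 3p arm is the one usually loaded into the silencing complex, which finds its targets through the seed at bases 2 to 8. miR-22 is enriched in heart and skeletal muscle and is best known there for its part in cardiac growth and the response to stress.

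The target sequences of both probes, as the scanner files give them, are shown with the seed in capitals, because the arms of a hairpin act through different seeds.
ssc-miR-22-3p: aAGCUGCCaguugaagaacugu
ssc-miR-22-5p: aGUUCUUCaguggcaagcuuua
Each is 22 bases long, with 45.5% G and C in the 3p arm and 40.9% in the 5p arm. Of the other 321 probes, 0 shared the seed of either arm, and 0 shared bases 2 to 7. The nearest sequence on the array differed from miR-22-3p by 9 single-base edits (miR-152, miR-17-3p and miR-29b), and the same held for miR-22-5p (miR-216, miR-27b-3p and miR-365-5p).

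The arms are shown again with the longest run over which they pair in capitals, counting Watson-Crick and G-U pairs and no gaps.
ssc-miR-22-5p: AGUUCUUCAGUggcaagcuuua
ssc-miR-22-3p: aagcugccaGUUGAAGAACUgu
The run was 11 pairs long, of which 2 were G-U, and joined bases 1 to 11 of the 5p arm to bases 10 to 20 of the 3p arm. In this register 17 of the 20 facing positions paired. The seed of the 5p arm lay inside the run and the seed of the 3p arm lay outside it. Among the 74 miRNAs with a probe for each arm the run ranged from 5 to 20 pairs with a median of 9, and 24 of them, miR-22 included, had a run of at least 11.

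Each array carried 9 repeat spots per probe and 786 empty spots, whose median was taken as the background. Well above background means here that the median over a probe's spots lay over 3 SD above the empty-spot median, with the SD taken over the empty spots. This held for 104 to 175 probes per array and for 104 probes on all 6. The lowest count, 104, was that of paced replicate 1, so this array alone set which probes counted on all 6. The empty-spot median was 64.7 to 214 scanner units on the sham arrays and 242.5 to 399 on the paced arrays, so the paced arrays had the higher background without overlap.

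miR-22-3p, the arm usually active in silencing, had a strong scanner signal on every array. The median of its 9 spots was 14185, 8757 and 9651 units in sham replicates 1, 2 and 3. It was 6334, 9478 and 6924 units in paced replicates 1, 2 and 3. These are brightness values before any correction, and on this scale paced replicate 2 lay above sham replicate 2, so the groups overlapped. The signal was 66.2 to 135 times the empty-spot median in sham and 15.9 to 39.1 times in paced animals. The brightest spot of any array reached 57881 units, so the miR-22-3p spots were well below the top of the range in use.

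The probe of miR-22-5p, the partner arm, was dimmer and nearer to the background. The median of its spots was 1184, 583 and 752 units in sham replicates 1, 2 and 3, and 705, 894 and 764 units in paced replicates 1, 2 and 3. On this scale the groups overlapped, with sham replicate 2 the lowest of the 6 arrays. Without any correction the paced minus sham difference was -0.04 on the log2 scale, with 4 of the 9 pairs of a paced and a sham array lower in the paced animal, against -0.51 and 8 of 9 for miR-22-3p. The signal was 5.53 to 9.02 times the empty-spot median in sham and 1.77 to 3.69 times in paced animals. It was nearest to the background in paced replicate 1, at 6.09 SD above the empty spots, against 14.7 SD or more on the other arrays. The part of the background in the difference between the groups was not tested. Values under other background corrections are given with the other ways of processing. Brightness was not compared between the arms as an amount, since probes differ in how strongly they bind.

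**Figure D1:**
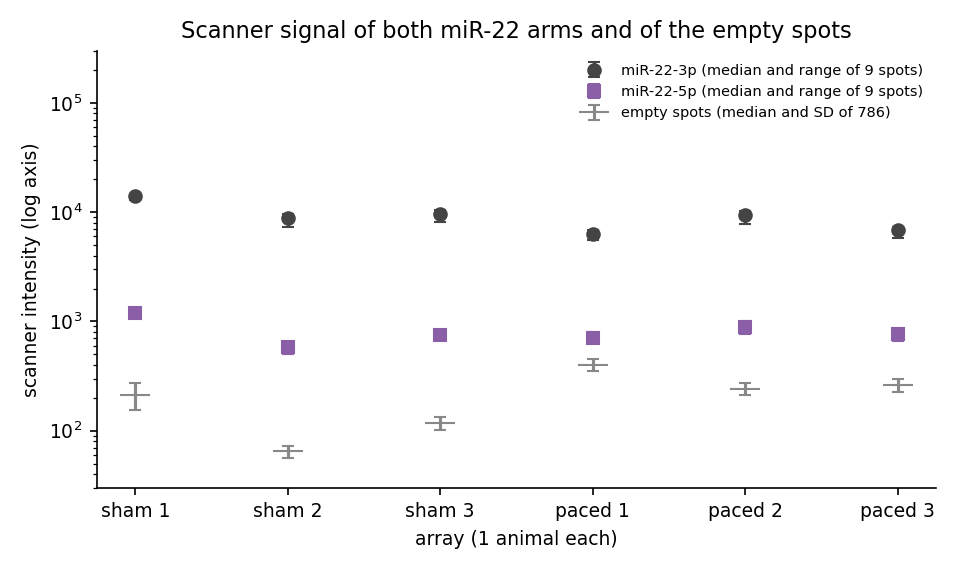
Scanner intensity on a log axis for each array, with circles for miR-22-3p and squares for miR-22-5p (median and range of 9 repeat spots) and dashes for the empty spots (median and SD of 786 spots). The empty spots are higher on all 3 paced arrays than on the sham arrays, and the miR-22-5p signal of paced replicate 1 is 1.77 times the empty-spot median.

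After background correction by normexp with an offset of 50 and quantile normalization, values were put on a log2 scale and the mean over repeat spots was taken. On this normalized log2 scale miR-22-3p was at 13.33, 13.11 and 13.08 in sham replicates 1, 2 and 3. It was 13.07, 13.03 and 12.83 in paced replicates 1, 2 and 3. Every paced value lay below every sham value, but sham replicate 3 and paced replicate 1 were only 0.0048 apart. The repeat spots of those arrays gave standard errors of 0.043 and 0.049, so the gap between the groups was smaller than the error of a single array's value. Sham animals averaged 13.17 ± 0.14 (SD, n = 3), and the mean of paced animals was 12.98 ± 0.13 (SD, n = 3). The difference of -0.19 corresponds to a level 12.5% lower in paced animals.

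On the same scale miR-22-5p was at 9.61, 9.45 and 9.66 in sham replicates 1, 2 and 3. It was 9.45, 9.27 and 9.30 in paced replicates 1, 2 and 3. Here too every paced value lay below every sham value by a narrow margin, since sham replicate 2 and paced replicate 1 were 0.0048 apart with standard errors over their spots of 0.030 and 0.041. Sham animals averaged 9.57 ± 0.11 (SD, n = 3) and paced animals 9.34 ± 0.10 (SD, n = 3), which is a difference of -0.23 or a level 15% lower. In both arms paced replicate 1 was the paced animal nearest to the sham group, and the sham animal nearest to the paced group was replicate 3 for the 3p arm and replicate 2 for the 5p arm.

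**Figure D2:**
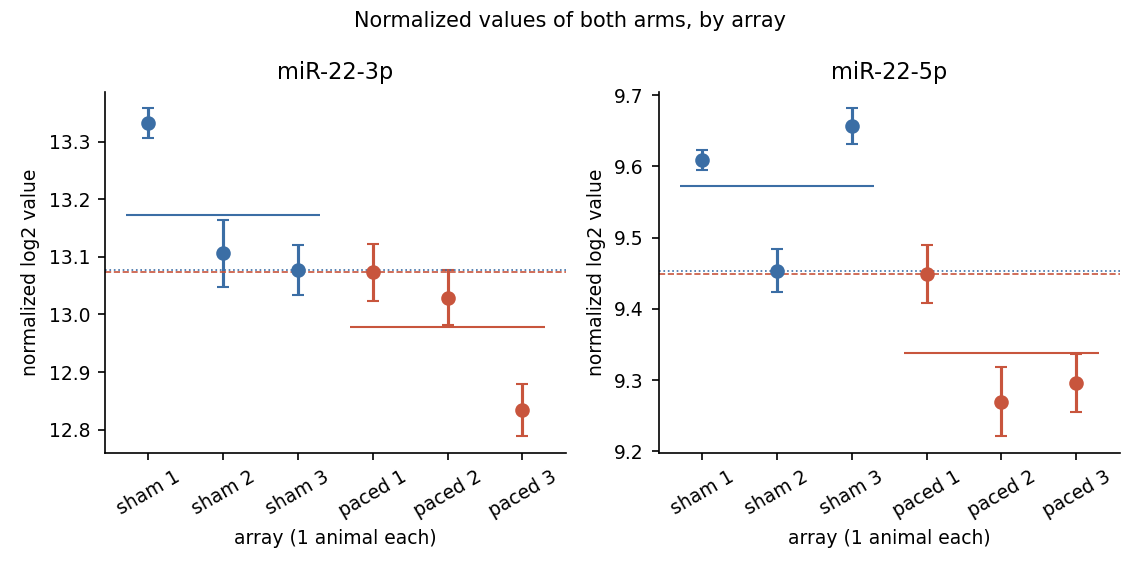
Normalized log2 value of miR-22-3p (left) and miR-22-5p (right) on each array, with blue for sham and red for paced; points are means over 9 repeat spots, bars their standard error, short lines the group means, the dotted line the lowest sham value and the dashed line the highest paced value. The dotted and dashed lines are 0.0048 apart in each panel, less than the bars of the arrays that set them.

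The choice of the arms used these values, so the counts that follow are read against the array as a whole and support nothing. Every paced array lay below every sham array for 33 of all 322 probes (10.2%). Of the 104 probes that cleared the background on all arrays, 5 did so (4.81%), which were both arms of miR-22, miR-128, miR-139-5p and miR-143-3p, and the reverse, every paced array above every sham array, held for 0 of them (0.00%). The lowest sham value minus the highest paced value, the gap, was 0.0048 in both arms. Just outside were miR-125b with a gap of -0.0099 and miR-133b with a gap of -0.014. miR-133b and miR-133a-3p, which are nearly identical in sequence, had the highest normalized values on every array, where quantile normalization leaves little room to move, so the small gap of miR-133b, at a difference of -0.0041, says nothing of a lower level. The values of miR-125b also lay near the top, between 13.99 and 14.05 on all arrays, at a difference of -0.0215. No lower level is read from its gap either. In a sample of whole atrium, fewer cells of a type and less RNA per cell cannot be told apart, and this holds for each level given here.

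The 9 repeat spots of a probe are copies at different places of the chip and not further animals. The coefficient of variation over the repeat spots of an array was 4.64% to 11.3% for miR-22-3p and 3.38% to 8.74% for miR-22-5p. Taken one position at a time, the mean difference was below 0 at all 9 positions for both arms, which the choice of the arms favours. The difference ranged from -0.25 to -0.16 for miR-22-3p and from -0.33 to -0.17 for miR-22-5p. From the first rows of the chip to the last it averaged -0.18, -0.19 and -0.21 for miR-22-3p. For miR-22-5p it averaged -0.18, -0.22 and -0.30, so its size differed with the place on the chip. The cause was not tested. Paced and sham values were without overlap at 2 of the 9 positions for the 3p arm and at 5 for the 5p arm.

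The authors' own processed values, 1 per probe and array on a linear scale, gave the same order of the groups. They come from the same arrays by which the arms were chosen, so this is no further support. For miR-22-3p they were 9808, 8964 and 8938 in sham and 7922, 8085 and 7241 in paced replicates 1, 2 and 3. The means were 9237 ± 495 (SD, n = 3) and 7749 ± 447 (SD, n = 3), a level 16.1% lower, and the gap between the groups was 853 units, wider than either SD. For miR-22-5p the values were 623, 576 and 693 in sham and 569, 551 and 557 in paced animals. The means were 631 ± 58.6 (SD, n = 3) and 559 ± 9.37 (SD, n = 3), a level 11.4% lower, with the groups 7.16 units apart. The spread of the 5p arm was thus far smaller in paced than in sham animals on this scale, while on the normalized log2 scale the 2 groups had nearly the same SD.

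The size of the difference depended on how the arrays were brought to a common level, and its sign was the same throughout. The arms were chosen for lower paced values on these same arrays, so the constant sign supports nothing. Over 10 other ways of processing, which do not include the uncorrected scanner values, the mean of miR-22-3p was lower in paced animals in all 10, with differences of -0.54 to -0.18 on the log2 scale, and the groups were without overlap in 7. The mean of miR-22-5p was lower in all 10 as well, with differences of -0.31 to -0.13, without overlap in 6. With the background taken from the nearest empty spots both arms overlapped, with a gap of -0.0012 for miR-22-3p and of -0.029 for miR-22-5p, at differences of -0.19 and -0.22. With background-corrected values left unnormalized both arms overlapped too, at -0.54 and -0.31, while the median difference over all probes was then 0.27. Scaling to the median of the detected probes gave differences of -0.38 for the 3p arm and -0.15 for the 5p arm. The median difference over all probes was then 0.44, and relative to it the arms differed by -0.81 and -0.58. That median took in 143 of 322 probes that were well above background on no array. The scaling levels the median of the 104 detected probes, so -0.38 and -0.15 are already relative to the detected probes. The 5p arm also overlapped under this scaling and under cyclic loess, and the 3p arm also when the median of the repeat spots replaced their mean.

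**Figure D3:**
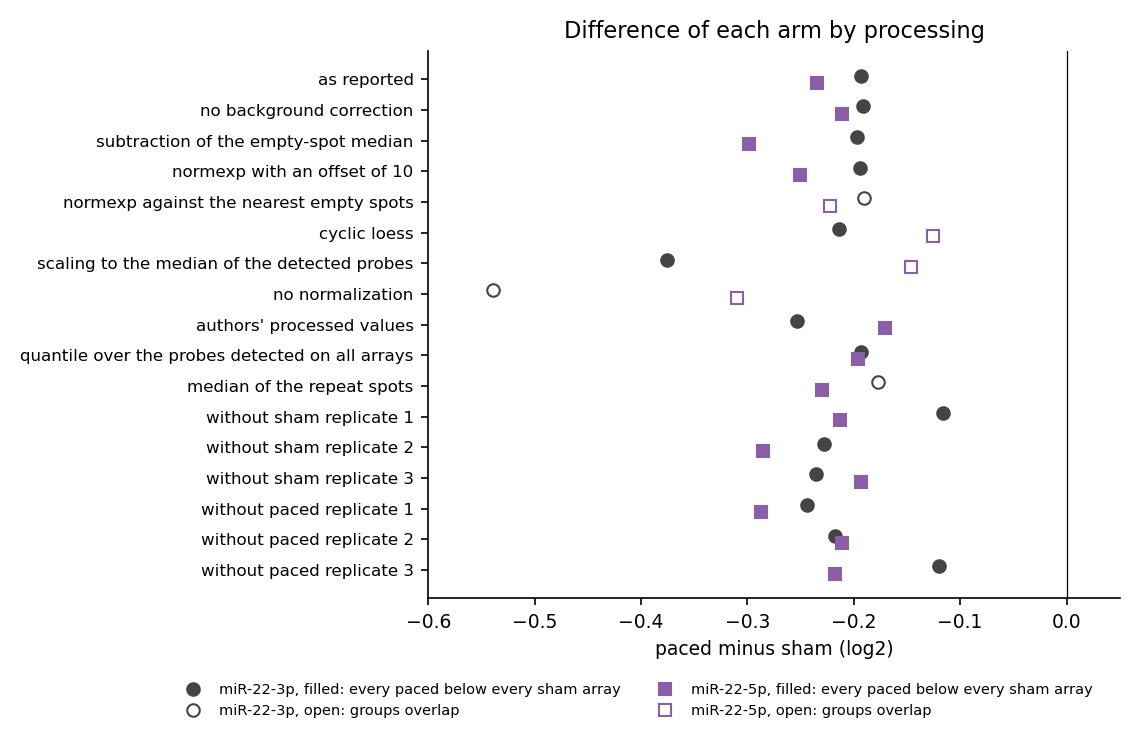
Difference between paced and sham means on the log2 scale under each way of processing, with circles for miR-22-3p and squares for miR-22-5p; filled symbols mark settings in which every paced array was below every sham array and open symbols settings in which the groups overlapped. All symbols lie below 0, between -0.54 and -0.12, and 7 of them are open.

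With a single animal left out, the difference of miR-22-3p lay between -0.24 and -0.12. It was smallest without sham replicate 1, the highest of the 6 values, at -0.12, and without paced replicate 3, the lowest, also at -0.12. These animals moved the value by more than 1.5 times. The difference of miR-22-5p lay between -0.29 and -0.19 whichever animal was left out.

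Both arms come from the same hairpin, so the difference between their log2 values was followed across animals. It was 3.72, 3.65 and 3.42 in sham and 3.62, 3.76 and 3.54 in paced replicates 1, 2 and 3. The paced and sham values were interleaved, with the lowest value in sham replicate 3 and the highest in paced replicate 2. The means were 3.60 ± 0.16 (SD, n = 3) and 3.64 ± 0.11 (SD, n = 3), and the change of 0.04 was smaller than the spread between animals. In the authors' processed values the change was -0.08, so that its sign was not settled. The value depends on both probes' binding and is not a ratio of amounts.

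For comparison, 74 miRNAs had a probe for each arm and in 9 of them both arms were well above background on all arrays. miR-22 was the only 1 of these 9 (11.1%) with both arms lower on every paced array, which is what the choice required. Of the others miR-133a, a muscle miRNA, had the least overlap, with a gap of -0.048 for its 5p arm and -0.026 for its 3p arm. The 3p value is held in place by quantile normalization as described, and its mean was 0.0041 higher in paced animals. In 4 of the 9, namely miR-22, miR-28, miR-199a and miR-151, both arms had a lower mean in paced animals. The range over the 6 arrays of the difference between the arms was 0.34 for miR-22, the third smallest of the 9, which had a median of 0.45 and ran from 0.32 to 0.82. miR-2320 was without overlap in both arms, with a gap of 0.0057 for its 5p arm and 0.028 for its 3p arm, but its arms were not both well above background.

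**Figure D4:**
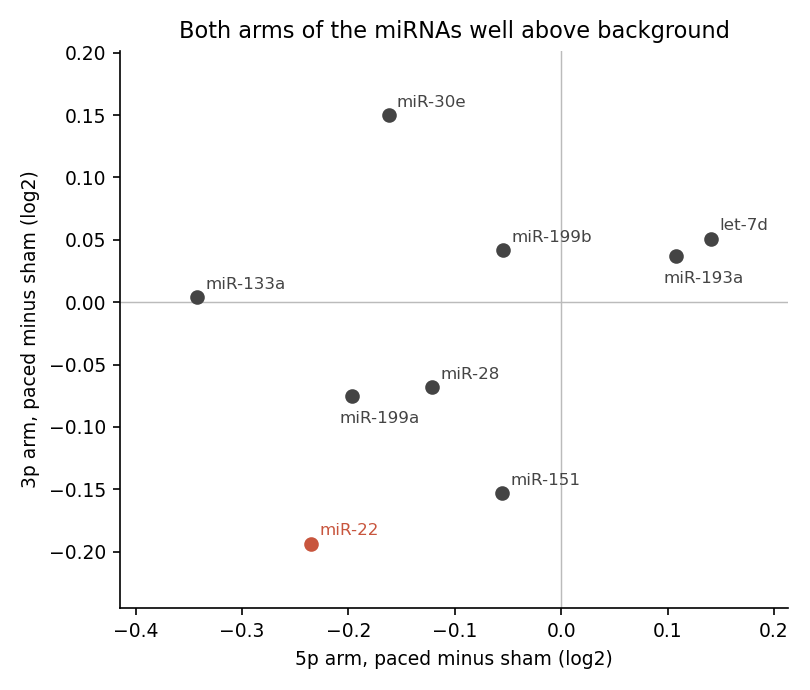
Difference between paced and sham means (log2) of the 3p arm against that of the 5p arm for the 9 miRNAs with both arms well above background on all arrays, with miR-22 in red. miR-22 lies at -0.23 and -0.19, and miR-28, miR-199a and miR-151 are the others with both means below 0.

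The probes whose pattern over the 6 arrays was most like that of miR-22-3p, among the same 104, were miR-181a (Pearson's r = 0.917), miR-130a (0.895), miR-143-3p (0.848) and miR-378 (0.842). Those most like miR-22-5p were miR-28-5p (0.841), miR-361-5p (0.808), miR-181b (0.778) and miR-676-3p (0.755). The arms of miR-22 correlated with each other at 0.693, which placed the 5p arm twelfth for the 3p arm and the 3p arm seventh for the 5p arm. These values describe 6 points that share the array, its background and its normalization, and part of each comes from the difference between the groups. With the group means removed, r was 0.350 between the arms. With miR-22-3p it was then 0.855 for miR-181a, 0.891 for miR-130a, 0.714 for miR-143-3p and 0.765 for miR-378. With miR-22-5p it was 0.748 for miR-28-5p, 0.834 for miR-361-5p, 0.689 for miR-181b and 0.948 for miR-676-3p.

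The closest of these, miR-181a, had normalized log2 values of 12.61, 12.46 and 12.30 in sham and 12.42, 12.19 and 12.12 in paced replicates 1, 2 and 3. Its groups overlapped, since paced replicate 1 was above sham replicate 3, and its difference was -0.21 (SE 0.11, limma, adjusted p = 0.495). For miR-143-3p, a smooth muscle miRNA, the difference was -0.32 (SE 0.10, limma, adjusted p = 0.323), without overlap. Both probes were named for their likeness to an arm that was chosen for lower paced values. A lower paced mean in them is therefore favoured by the choice, and their differences are a description that supports nothing.

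The tissue was checked against miRNAs that mark cell types. Of 4 cardiac muscle markers, miR-1, miR-133a-3p and miR-499-5p were well above background on all 6 arrays and miR-208b on 5. The smooth muscle markers miR-143-3p and miR-145-5p and the endothelial marker miR-126-3p were so on all 6, as was the red-cell miRNA miR-451, while miR-144 was so on 0 arrays. Of the 3 leukocyte markers with a probe, miR-150 was so on all 6 and both arms of miR-142 on 0. The liver marker miR-122 and the 3 neural probes were so on 0 arrays. The paced minus sham differences over these 16 probes ran from -0.37 for miR-451 (SE 0.20, limma, adjusted p = 0.511) to 0.37 for miR-1 (SE 0.32, limma, adjusted p = 0.725), and 0 of the 16 passed the adjusted test. Their part in the miR-22 values was not tested.

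The limma comparison over all 322 probes called 0 at an adjusted p below 0.05 (0.00%) and 34 at an unadjusted p below 0.05 (10.6%). Of 9 probes for muscle-enriched miRNAs, a class in which miR-22 is often counted, 0 passed the adjusted test and 1, miR-486, passed the unadjusted one. In paced animals 5 of the 9 were higher and 4 lower, against 165 higher and 157 lower of all 322 probes. Among the 5 higher, miR-206 and miR-499-3p were well above background on 0 arrays. The median difference of the 9 probes was 0.0041, against 0.0031 over all probes. It is the value of miR-133a-3p, which quantile normalization holds in place, and nothing is read from it. miR-486, a muscle and red-cell miRNA, was at 8.47, 8.92 and 8.96 in sham and at 7.88, 8.20 and 8.16 in paced replicates 1, 2 and 3. It was well above background on 5 of the 6 arrays, all but paced replicate 1, which gave its lowest value. Its groups were without overlap, and its difference was -0.70 (SE 0.16, limma, adjusted p = 0.134). miR-133a-5p, the partner arm of the muscle miRNA miR-133a-3p, differed by -0.34 (SE 0.16, limma, adjusted p = 0.470). For miR-1, a muscle-specific miRNA, the values were 12.97, 12.96 and 13.20 in sham and 12.62, 13.70 and 13.93 in paced animals, so that paced replicate 1 was the lowest of all and the other paced animals the highest. Without paced replicate 1 its difference was 0.75 (limma, adjusted p = 0.0150, against 0.0150 to 0.985 over all alternatives), and then 1 of the 9 muscle probes passed, beside 9 of all 322 probes (2.80%).

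**Figure D5:**
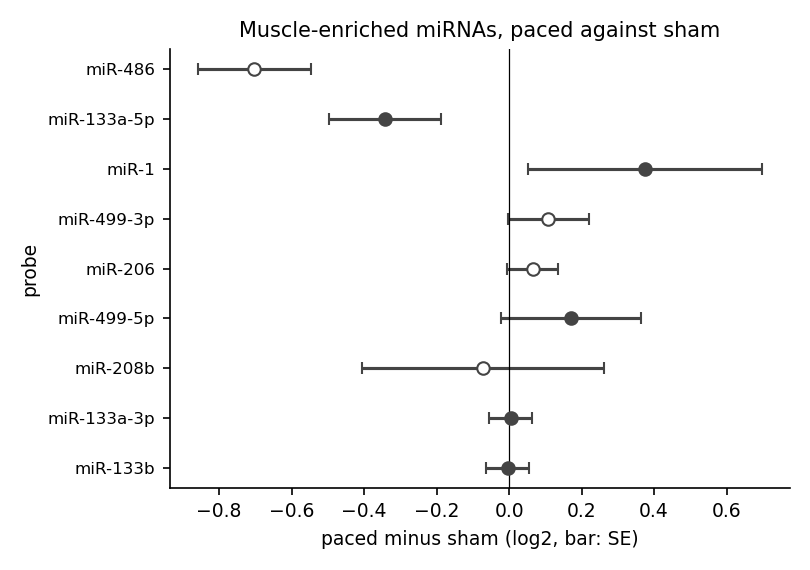
Paced minus sham difference (log2, limma) with its standard error for the 9 muscle-enriched miRNA probes, ordered by p; filled points were well above background on all 6 arrays and open points on fewer. The differences run from -0.70 for miR-486 to 0.37 for miR-1, and 0 passed the adjusted test.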

How the data were processed

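LA RNA of 3 paced and 3 sham pigs was tailed, tagged, stained with Cy3 and hybridized to 1 array per animal by a service provider. The authors deposited scanner files, which hold the median intensity of each of 3968 spots on a linear scale, with background included and no normalization. They also deposited processed intensities, 1 per probe and array, with medians of 48.7 to 59.2 over the pig probes. These followed the scanner values of their array (Spearman's rho 0.988 to 0.996 across probes, which are not independent). Their lowest values, 0.00203 to 0.0434, lay far below the empty-spot medians of the scanner files. How background was removed and arrays were normalized is not given in the sources used here.

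Normexp correction (offset 50) was fitted on all spots with limma 3.58.1 under R 4.3.3. Quantile normalization then used the 2898 spots of pig miRNAs without the 1070 controls, and log2 values were averaged per probe. Groups were compared with lmFit and eBayes over all 322 probes with Benjamini-Hochberg adjustment, for the members of the muscle miRNA list, the cell type markers and other named probes, and not for miR-22. The probes of miR-22, the list and the rules for named miRNAs were chosen with earlier results of these data known. Named were both arms, the 4 probes most correlated with each arm, the 3 members of lowest p in the list, and the pairs of arms at the edge of the choice. A further list of miRNAs is not reported here. An intended comparison with genes near miR-22 was not made, since its gene was not found in the gene table used here (Sscrofa11.1). The alternatives changed 1 step at a time: no background correction, subtraction with a floor of 32, an offset of 10, the 15 nearest empty spots as background, cyclic loess, scaling, no normalization, the processed values, quantile normalization of the 104 detected probes, the median of the repeat spots, a filter on dim probes, a trended robust prior, the methods' t-test, the replicate number as a block, and each animal left out. The methods' t-test on the processed values was added after the data were examined. Steps were tested on simulated data with planted changes much larger than the differences of miR-22. That test says nothing of differences as small as these. With so few arrays the precision is low, and the labels give no batch. Python 3.11.15 with matplotlib 3.10.9 drew the figures.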

Additional observations from a re-analysis of the deposited data

How the results depend on the processing

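The direction of both arms was the same under all alternatives run, which the choice of the arms by these same arrays favours and which supports nothing. The difference of miR-22-3p moved by more than the spread between animals to -0.38 under scaling to the detected probes' median and to -0.54 without normalization, and that of miR-22-5p to -0.13 with cyclic loess. The change in the difference between the arms, 0.04, turned to -0.0885 with cyclic loess and to -0.0828 on the authors' processed values. It turned to -0.23 with that scaling and also without normalization. These are the same setting for this value, since scaling moves both arms of an array alike. The gap was then -0.0036, so the groups overlapped only slightly. The gap measures separation toward lower paced values. In the reported processing the change was above 0, so its gap of -0.3378 is not comparable, and the paced and sham values were interleaved there. With an animal left out the change lay between -0.0420 and 0.0973. The cause was not tested. The count of muscle probes past the adjusted threshold rose from 0 to 4 with that scaling (miR-206, miR-499-3p, miR-133a-5p and miR-486), where 171 of all 322 probes passed (53.1%), and was 0 to 1 with an animal left out. Under that scaling the median difference over all probes was 0.44, and miR-133a-5p and miR-486 fell, while miR-206 and miR-499-3p cleared the background on 0 arrays. All other alternatives gave 0. At their threshold the methods' t-test gave 1 of 9 muscle probes on the log2 values, beside 12.1% of all probes, and 1 of 9 on the processed values, beside 8.70%, and 0 of all probes after Benjamini-Hochberg adjustment. Same-numbered animals deviated with correlations of 0.172, -0.0142 and 0.211 over 104 probes. The other pairs of a sham and a paced animal lay between -0.236 and 0.0906, below the values of numbers 1 and 3. So few correlations cannot decide whether same-numbered animals share more than a number. With the replicate block the differences stayed at -0.19 and -0.23 and the count at 0. The precision is limited by 3 arrays per group and, for miR-22-5p, by a paced signal of 1.77 to 3.69 times the background.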
